A study of Mus musculus with 33 samples.

Results

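The MOR28 cluster is a small group of odorant receptor genes on mouse chromosome 14, taken here as the rows whose symbol runs from Olfr1507 to Olfr1512. All 6 genes have a row among the 830 Olfr rows measured in sorted neurons, and 5 of them have one among the 590 Olfr rows measured in whole epithelium, where Olfr1512 is not listed. RefSeq gives Olfr1507 the name Mor28, Olfr1508 the name Mor10 and Olfr1509 the name Mor83, and places all of them in the MOR244 family. Olfr1510, Olfr1511 and Olfr1512 carry MOR223 family names. Ordered by start position in the reference, Olfr1512, Olfr1511 and Olfr1510 stand together, and Trav1, of the T cell receptor alpha chain, starts next. Olfr1509, Olfr1508 and Olfr1507 also stand together, and the start of Tcra, the T cell receptor alpha locus, directly precedes that of Olfr1509. This order by start does not show where that locus ends. The Ensembl identifiers in the files are ENSMUSG00000059887 for Olfr1507, ENSMUSG00000057564 for Olfr1508, ENSMUSG00000035626 for Olfr1509, ENSMUSG00000063106 for Olfr1510, ENSMUSG00000063867 for Olfr1511 and ENSMUSG00000060640 for Olfr1512.

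Odorant receptors are membrane proteins that bind airborne molecules, and a mature olfactory sensory neuron transcribes a single receptor allele out of a very large family. A receptor's level in a mixed sample is therefore set both by how many neurons chose it and by how much RNA each of them holds, and in bulk samples fewer cells of a type and less RNA per cell cannot be told apart. The MOR28 cluster is known for the H element, an enhancer upstream of it that the nearest receptors of the cluster need for expression in mice. Lhx2, a homeodomain factor, Ldb1, its cofactor, and the Ebf factors act at receptor promoters and enhancers, and Dnmt3a is a de novo DNA methyltransferase that acts mainly at cytosines followed by guanine (CpG).

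The series held 33 samples of mice at 3 weeks of age that were homozygous null (KO), heterozygous null (Het) or wild type (WT) for Dnmt3a, and RNA was sequenced in 12 of them. In 6 libraries, 2 per genotype, RNA of flow-sorted mature olfactory sensory neurons (mOSN) was used. The deposited table gives 1 pooled value per genotype for these. The other 6 libraries were made from whole main olfactory epithelium (MOE) of animals placed for 60 min, after 10 min in clean cages, with filter paper carrying 80 µL of amyl acetate, acetophenone and octanal in equal parts (odor below) or 80 µL of water. The groups were KO odor, KO water, Het odor, Het water, WT odor and WT water, with 1 library each. The labels name no strain, no deleted part of Dnmt3a, no driver for the sort and no animal behind a library. Ribosomal RNA was depleted from all RNA libraries, which were made with NuGEN in MOE. In mOSN both KO libraries were made with NuGEN from 100 ng, both WT libraries with ScriptSeq from 200 ng, and Het with 1 of each, so that kit and genotype cannot be told apart between KO and WT.

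Values are deposited RPKM-scale values, a read density per gene length and library depth, and the tables of the 2 tissues were normalized separately. Whole reads could be recovered from the MOE table, with 9410063 to 17639584 reads per library. The depth of mOSN is unknown. Dnmt3a, the targeted gene, had 48.3 and 56.1 in KO odor and KO water, 66.6 and 50.3 in Het odor and Het water, and 89.0 and 84.4 in WT odor and WT water, so that both KO and both Het libraries were below both WT libraries. In mOSN its pooled value was 56.2 in KO, 120 in Het and 175 in WT. All 12 markers of mature olfactory sensory neurons had a row in both tables, and their summed value was 28624 in KO odor, 22061 in KO water, 8399 in Het odor, 11764 in Het water, 19903 in WT odor and 25898 in WT water, against 58445, 81526 and 86735 in KO, Het and WT mOSN. The 8 markers of sustentacular cells, the supporting cells of the epithelium, summed to 24846 to 35848 in MOE and to 457 to 699 in mOSN. Omp, which marks mature neurons, stood lowest in Het odor at 249, against 1582 to 5962 in the other 5 MOE libraries. KO odor stood apart in the collagen genes Col1a1, at 746 against 2223 to 4931 in the other 5, and Col1a2, at 278 against 777 to 1427. The other endothelial and mesenchymal markers, Cdh5 at 56.0 and Pecam1 at 8.45, lay within the range of the other 5. All 4 together summed to 1089 in KO odor, against 3057 to 6448.

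The 250 bases upstream of the annotated start are shown for the 4 members that RefSeq's promoter table holds, because receptor promoters are known to carry homeodomain sites and because DNA methylation acts at CpG. For Olfr1509, Olfr1510 and Olfr1511 RefSeq gives spans of only 1010, 1039 and 957 bases, against 4741 for Olfr1508. Whether transcription begins at the annotated start was not tested, so these windows may not be the promoters. The capitals mark the homeodomain core TAATNA, searched on both strands, with overlapping matches joined. The windows are read 5′ to 3′ on the gene's strand from RefSeq on GRCm38.p6. They are chr14:52467462-52467711 on the minus strand, chr14:52450143-52450392 on the plus strand, chr14:52410928-52411177 on the minus strand and chr14:52390772-52391021 on the minus strand.
Olfr1508: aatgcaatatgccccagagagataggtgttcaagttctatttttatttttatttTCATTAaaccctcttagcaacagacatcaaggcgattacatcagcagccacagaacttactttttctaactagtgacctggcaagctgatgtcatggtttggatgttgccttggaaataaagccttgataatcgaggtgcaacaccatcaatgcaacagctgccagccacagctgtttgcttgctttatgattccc
Olfr1509: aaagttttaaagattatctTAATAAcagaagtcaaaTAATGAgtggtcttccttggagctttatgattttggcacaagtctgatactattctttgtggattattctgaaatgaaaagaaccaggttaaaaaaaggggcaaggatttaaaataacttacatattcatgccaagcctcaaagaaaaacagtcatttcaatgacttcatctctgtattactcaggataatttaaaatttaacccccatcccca
Olfr1510: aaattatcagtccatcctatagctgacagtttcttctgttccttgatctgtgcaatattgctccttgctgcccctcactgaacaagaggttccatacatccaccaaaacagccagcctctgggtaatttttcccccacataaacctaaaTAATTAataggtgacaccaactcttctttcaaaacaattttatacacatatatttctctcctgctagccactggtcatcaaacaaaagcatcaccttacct
Olfr1511: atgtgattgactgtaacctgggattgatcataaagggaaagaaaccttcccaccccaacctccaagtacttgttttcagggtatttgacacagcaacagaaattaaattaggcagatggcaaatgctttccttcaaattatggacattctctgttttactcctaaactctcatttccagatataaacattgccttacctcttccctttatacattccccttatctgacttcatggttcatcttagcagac
The core was found at -196 to -191 from the start in Olfr1508, at -231 to -226 and at -214 to -209 in Olfr1509, and at -101 to -96 in Olfr1510, and these letters are not in the window of Olfr1511. It occurred in 24.3% of all 32851 windows of this length and in 63.8% of the 948 windows of Olfr genes. The letters CCCNNGGG, the core bound by Ebf factors, are in none of these 4 windows and occurred in 11.8% of all windows and 2.7% of Olfr windows. The Olfr1508 window holds 2 CpG, and those of Olfr1509, Olfr1510 and Olfr1511 hold 0, against a median of 6 over all windows and 1 over Olfr windows.

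Olfr1507 was the receptor with the highest value in 8 of the 9 columns. In MOE it had 366 in KO odor, 538 in KO water, 212 in Het odor, 283 in Het water, 328 in WT odor and 511 in WT water. In mOSN its pooled value was 1045 in KO, 1166 in Het and 1278 in WT. In MOE both Het libraries lay below all KO and WT libraries, and each water library lay above the odor library of its genotype. The exception in rank was KO odor, where Olfr1507 stood in place 4 of 590, below Olfr1196 at 473 and directly below Olfr1178 at 378. There 524 reads were counted for it, and the 95% Poisson interval of its value, 336 to 399, includes the value of Olfr1178. Ranked by recovered reads instead of by value per length, which favours long transcripts, it stood in place 1 in KO water and in place 2 in the other 5 MOE libraries. Intervals here cover counting error only.

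The distance between Olfr1507 and the next receptor differed between libraries. Its value was 2.28 times that of Olfr305 in KO water, 2.58 times that of Olfr1178 in Het odor, 2.31 times that of Olfr810 in Het water, 2.0 times that of Olfr810 in WT odor and 1.24 times that of Olfr305 in WT water. In KO odor it was 0.775 times that of Olfr1196. In sorted neurons the ratio to the next receptor was 1.58 in KO (Olfr1297), 1.76 in Het (Olfr672) and 1.93 in WT (Olfr969), so a different receptor came second in each genotype. The rank curves of all receptors show this distance at their left end.

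**Figure D1:**
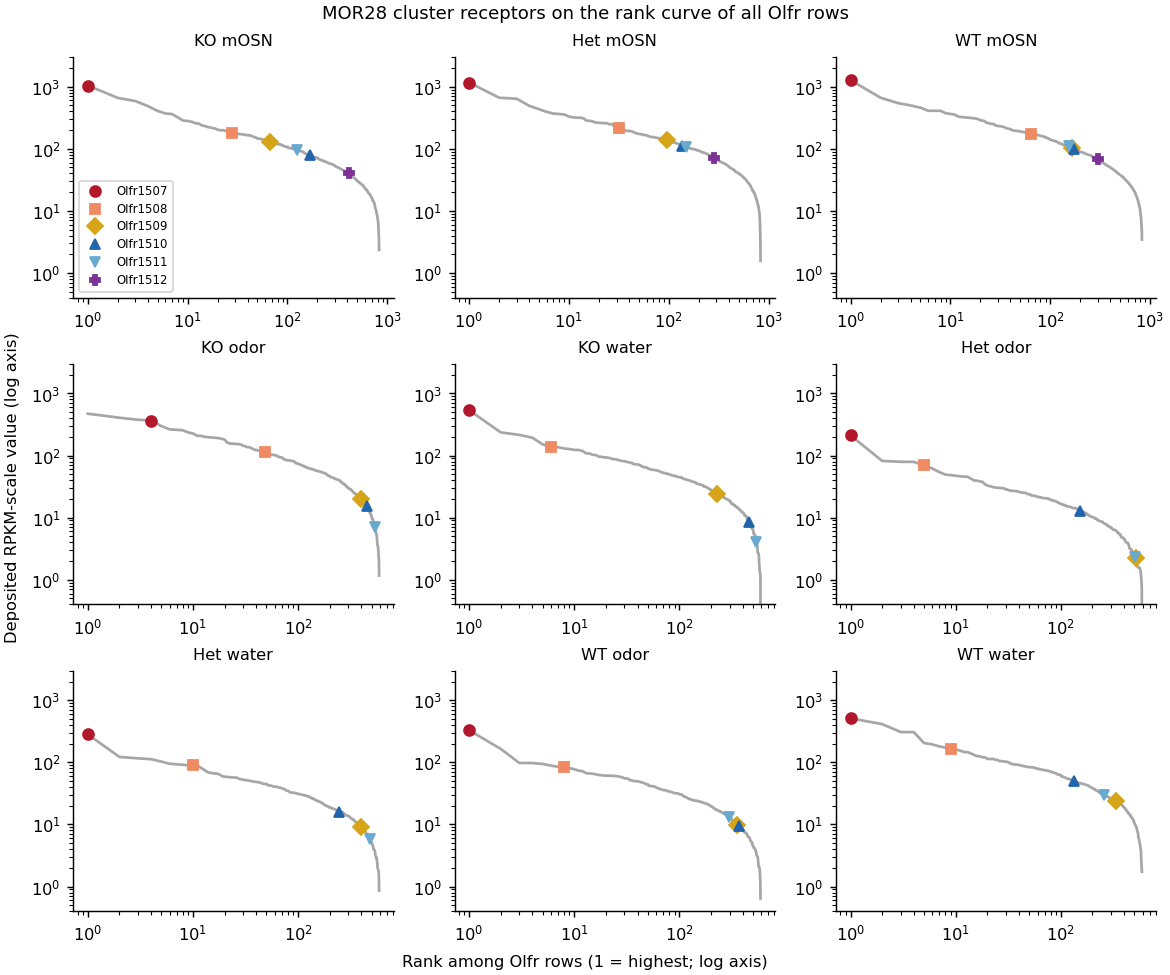
Deposited RPKM-scale value (log axis) against rank (log axis, 1 = highest) of all Olfr rows in each column (grey line), with the MOR28 cluster receptors as coloured symbols; the top row is sorted neurons, the other rows whole epithelium. Olfr1507 is the leftmost point except in KO odor, where it is in place 4, and Olfr1508 lies between places 5 and 48 in epithelium.

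Olfr1508, the neighbour of Olfr1507, also ranked near the top. It had 113 in KO odor, 137 in KO water, 69.5 in Het odor, 89.4 in Het water, 82.9 in WT odor and 163 in WT water, and its places among the 590 receptors were 48, 6, 5, 10, 8 and 9 in the same order. Both Het libraries and WT odor were low, and KO and WT overlapped. In mOSN its pooled values were 177 in KO, 216 in Het and 174 in WT, at places 28, 32 and 65 of 830. Its value was 25.3% to 32.8% of that of Olfr1507 over the 6 MOE libraries, and 16.9%, 18.5% and 13.6% of it in KO, Het and WT mOSN.

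The other members varied more in their place within the receptor family in MOE. Olfr1509, the third gene on the Olfr1507 side, had 20.0 in KO odor, 23.9 in KO water, 2.21 in Het odor, 9.22 in Het water, 9.75 in WT odor and 23.5 in WT water. Both KO libraries and WT water were high, and Het odor was lowest, with 3 reads and a 95% Poisson interval of 0.456 to 6.46. Its place was 229 to 514 of 590.

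Olfr1510, which stands with Olfr1511 and Olfr1512, had 15.1 in KO odor, 8.57 in KO water, 12.9 in Het odor, 16.1 in Het water, 9.48 in WT odor and 49.4 in WT water. WT water stood above all other libraries, which overlapped. Its place was 134 of 590 in WT water, 152 in Het odor and 247 in Het water, where it lay above the receptor median. It was 366 in WT odor, 453 in KO odor and 454 in KO water, where it lay below the median. Its neighbour Olfr1511 had 7.04 and 3.99 in KO odor and KO water, 2.33 and 5.84 in Het odor and Het water, and 13.4 and 29.8 in WT odor and WT water. Here both WT libraries lay above all KO and Het libraries, while KO and Het overlapped. Its place was 256 in WT water, 293 in WT odor and 482 to 539 in the KO and Het libraries. Between 3 and 54 reads were counted for Olfr1509, Olfr1510 and Olfr1511 in any library, so their differences are imprecise.

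Sorted neurons were compared with epithelium by place among the 515 receptors in both tables. Olfr1509 was at places 61 to 146 in mOSN and 212 to 451 in MOE, and Olfr1511 at 107 to 136 in mOSN and 238 to 475 in MOE. Olfr1510 was at 119 to 152 in mOSN and 126 to 410 in MOE. The MOE places of these genes rest on few reads. How many of the 515 receptors differed as much in place between the tissues was not counted. Among all 830 receptors of the mOSN table, Olfr1509 had pooled values of 129 in KO, 139 in Het and 102 in WT, at places 67, 97 and 167 of 830. Olfr1510 had 78.2 in KO, 112 in Het and 99.0 in WT, and Olfr1511 had 94.8 in KO, 108 in Het and 110 in WT, with places between 126 and 173 for both genes. Olfr1512, the outermost gene of the cluster, had 40.3 in KO, 72.1 in Het and 68.1 in WT, at places 413, 285 and 301. The median of all receptors was 40.2 in KO, 49.0 in Het and 47.9 in WT, so Olfr1512 lay near it in KO and above it in Het and WT. By value per length the order within the cluster was thus Olfr1507, then Olfr1508, in all 9 columns, with Olfr1509 next in KO and Het mOSN, in KO odor and in KO water, and Olfr1510 or Olfr1511 next in the others.

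**Figure D2:**
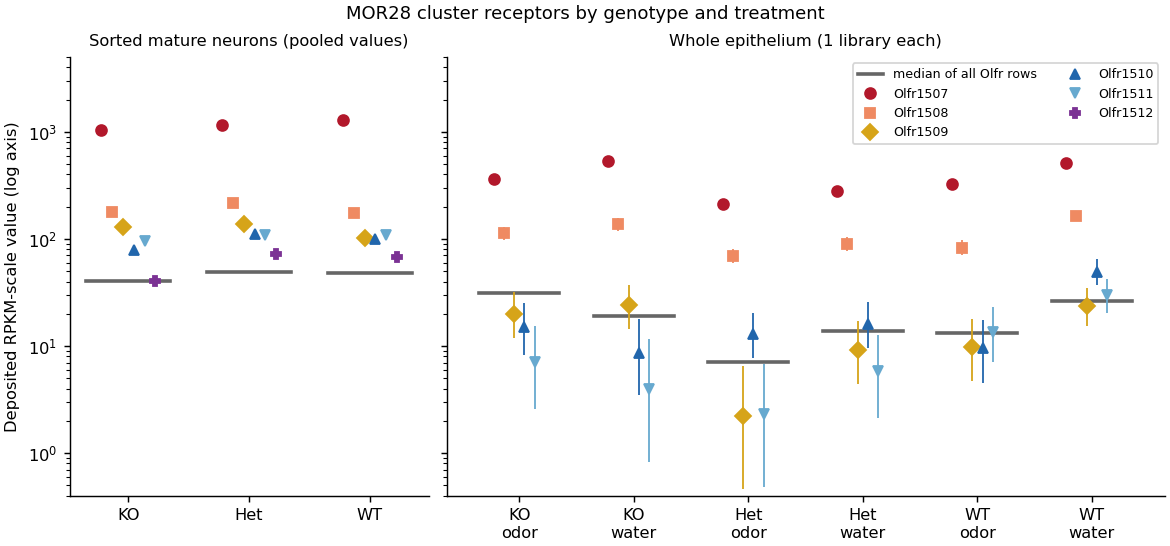
Deposited RPKM-scale values (log axis) of the MOR28 cluster receptors in sorted neurons (left, pooled values) and whole epithelium (right, 1 library each, bars are 95% Poisson intervals of the recovered reads), with the median of all Olfr rows as a grey line. Olfr1507 and Olfr1508 lie above the median in every column, while Olfr1509, Olfr1510 and Olfr1511 lie on either side of it in epithelium. Olfr1510 is above it in WT water (49.4 against 26.4), Het odor (12.9 against 7.02) and Het water (16.1 against 13.9). The 2 panels were normalized separately.

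As a share of all receptor values, Olfr1507 made up 1.32% in KO odor, 3.28% in KO water, 3.41% in Het odor, 2.47% in Het water, 2.95% in WT odor and 2.26% in WT water. KO odor was lowest, with the largest summed receptor value of the 6 libraries (27728, against 6211 to 22628). In mOSN the share was 2.20% in KO, 1.96% in Het and 2.12% in WT. Set against the summed mature neuron markers, Olfr1507 came to 1.28%, 2.44%, 2.52%, 2.40%, 1.65% and 1.97% in KO odor, KO water, Het odor, Het water, WT odor and WT water, so the Het libraries, low in the absolute value of Olfr1507, were not low in this ratio. It came to 1.79% in KO, 1.43% in Het and 1.47% in WT mOSN. The measured members together made up 1.88% of the receptor sum in KO odor and 3.43% to 4.81% of it in the other 5 MOE libraries, against 3.30%, 3.05% and 3.04% in KO, Het and WT mOSN.

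**Figure D3:**
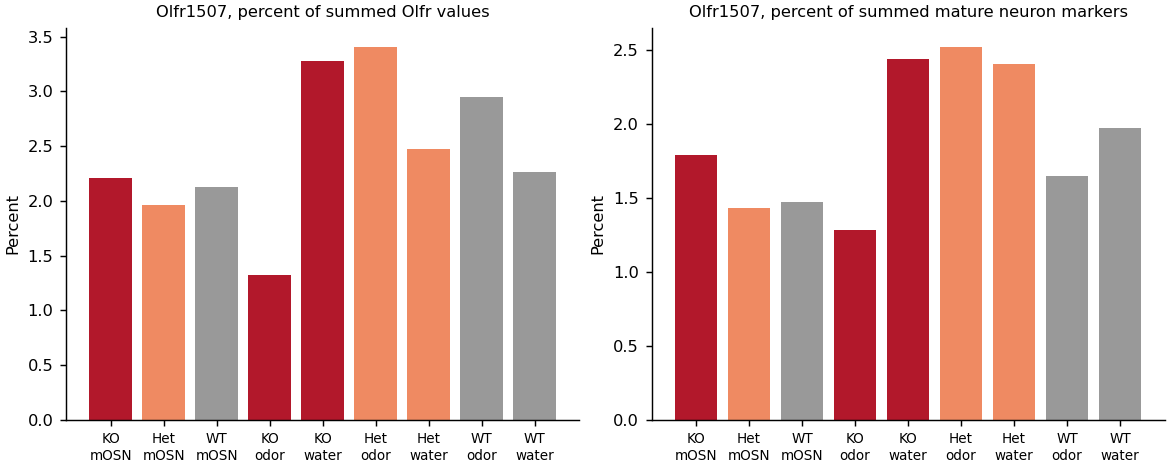
Olfr1507 as a percent of the summed values of all Olfr rows (left; 830 rows in sorted neurons, 590 in epithelium) and of 12 mature neuron markers (right), for each column, with KO in red, Het in orange and WT in grey. The left bars run from 1.32% in KO odor to 3.41% in Het odor, and the mOSN bars lie between 1.96% and 2.20%.

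Exposure to odor asks whether the receptor RNAs differ within an hour of stimulation. All 5 members were lower with odor on average over the genotypes, Olfr1507 by a log2 of -0.54 ± 0.14 (standard error here and below) and Olfr1508 by -0.54 ± 0.20, and none passed the test. By genotype, the log2 difference of Olfr1507 between odor and water was -0.55 in KO, -0.42 in Het and -0.64 in WT, with standard errors from counting alone of 0.0839, 0.0940 and 0.0794. That of Olfr1508 was -0.28, -0.36 and -0.97 in KO, Het and WT. Over all 590 receptors the median was 0.74 in KO, -0.92 in Het and -1.03 in WT, so in KO most receptors were higher with odor and both of these were lower.

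The remaining members had larger and less precise differences. Olfr1509 differed by -0.25 in KO, -1.84 in Het and -1.23 in WT (fitted log2 -1.11 ± 0.39). Olfr1510 differed by 0.78, -0.31 and -2.32 (fitted log2 -0.62 ± 0.60), and Olfr1511 by 0.75, -1.16 and -1.13 (fitted log2 -0.51 ± 0.48), each in KO, Het and WT. Thus Olfr1507, Olfr1508 and Olfr1509 were lower with odor in all 3 genotypes, as were 65 of the 590 receptors (11.0%), while Olfr1510 and Olfr1511 were higher with odor in KO.

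Limma (two-sided, genotype as a block, Benjamini-Hochberg over 14602 genes) called 0 of the 5 members, with adjusted p from 0.882 to 0.893, and voom on the recovered reads called 0 as well. All 5 members passed the filter on low values. Over all genes limma called 2 that were higher with odor (0.0137%) and 0 that were lower (0.0%). Before adjustment 3 of the 5 members were lower at a p under 0.05 (Olfr1507, Olfr1508 and Olfr1509), and 0 were higher, against 1.86% of all genes lower and 3.01% higher, and 48 of the 590 receptors in either direction. The 2 called genes were the immediate early genes Fos (3.99 ± 0.25, adjusted p = 0.0454 by limma) and Egr1 (3.63 ± 0.18, adjusted p = 0.0249 by limma), known markers of stimulated cells. Of all receptors 438 of 590 were lower, with a median of -0.41, below 0 as for the members (median -0.54). The summed mature markers moved with treatment in the same direction as the receptor median in each genotype, higher with odor in KO and lower in Het and WT. Single markers were mixed. In the fit 8 of the 12 were lower with odor and 4 higher, with a median log2 of -0.16. The part of these markers in the result was not tested. Without the Het pair, which holds the library with the lowest Omp, the log2 difference was -0.60 for Olfr1507 and -0.63 for Olfr1508, and without the KO pair it was -0.53 for Olfr1507 and -0.67 for Olfr1508.

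Among receptors, Olfr1507 had one of the smallest spreads of the odor difference between genotypes. The standard deviation of its 3 log2 differences was 0.112, the third smallest of 590, against a receptor median of 1.30. Among the 19 receptors with at least 100 reads on average, a limit chosen after seeing the data, it was the smallest, followed by Olfr389 at 0.222. Olfr1508 was at 0.377, and the median of the 19 was 1.23. Of these 19 receptors 16 were higher with odor in KO, and 18 were lower with odor in both Het and WT. Olfr1507, Olfr1508 and Olfr389 were the 3 that were lower in all genotypes.

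**Figure D4:**
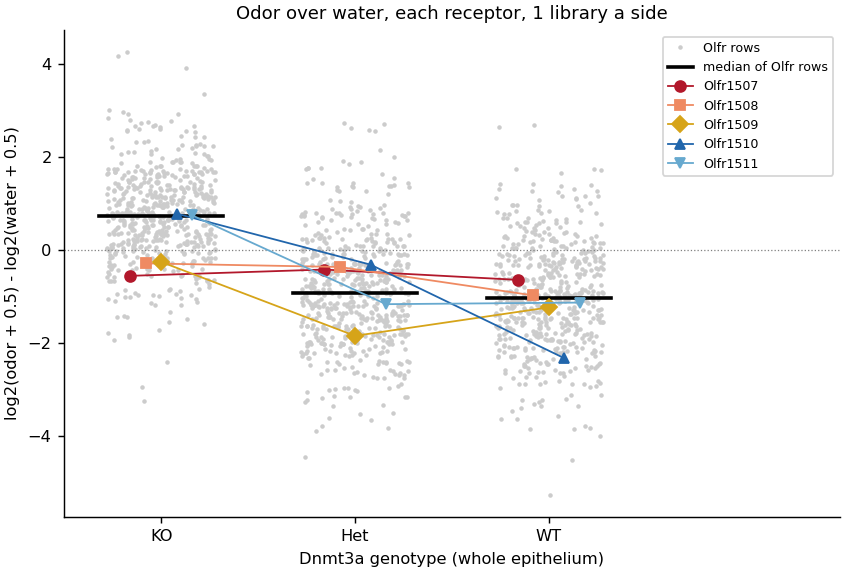
Difference in log2(value + 0.5) between odor and water for each receptor (grey points, spread sideways at random) in KO, Het and WT epithelium, with the median of all 590 Olfr rows as a black bar and the MOR28 cluster receptors as joined symbols. The median is 0.74 in KO, -0.92 in Het and -1.03 in WT, while Olfr1507 lies between -0.64 and -0.42 in all 3.

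The odor effect in KO was also tested against the common effect in Het and WT. Olfr1507 differed by -0.02 ± 0.32 (adjusted p = 0.995, limma) and Olfr1508 by 0.38 ± 0.41, against 1.28 ± 0.68 for Olfr1509, 2.1 ± 0.95 for Olfr1510 and 1.89 ± 0.73 for Olfr1511. In the family as a whole 530 of 590 receptors had a positive value, with a median of 1.66. Limma and voom called 0 members and 0 genes (0.0% in either direction). At an unadjusted p under 0.05 the 1 member was Olfr1511, higher, against 3.75% of all genes higher and 3.36% lower and 250 of the 590 receptors in either direction. Of the 12 mature neuron markers 10 were higher in this contrast (median log2 0.79, Omp at 2.7 ± 0.69). Of 4 endothelial and mesenchymal markers 3 were lower, with the collagen genes Col1a1 at -3.11 ± 0.42 and Col1a2 at -2.55 ± 0.35. Cdh5 was at -0.03 ± 0.72 and Pecam1 at 0.29 ± 0.71. All 4 of the macrophage markers with a row were lower, with Cd68 at -1.74 ± 0.39, and none of these markers passed by limma. The part of these cell types in the result was not tested. This fit has 1 residual degree of freedom and assumes that Het and WT respond alike.

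Between KO and WT epithelium the differences of Olfr1507 and Olfr1508 were smaller than their standard errors. The fitted log2 difference was 0.12 ± 0.17 for Olfr1507, 0.09 ± 0.24 for Olfr1508 and 0.51 ± 0.47 for Olfr1509, against -0.91 ± 0.73 for Olfr1510 and -1.82 ± 0.59 for Olfr1511. Of the 5 members 3 were thus above 0, as were 394 of all 590 receptors, whose median was 0.37. Olfr1510 and Olfr1511 were below 0, as were 196 of the 590. Split by treatment, Olfr1507 differed by 0.16 with odor and 0.07 with water, while the receptor median was 1.26 with odor and -0.49 with water. Olfr1508 differed by 0.44 with odor and -0.25 with water, and Olfr1510 by 0.65 with odor and -2.46 with water, so both turned direction between treatments. Olfr1511 was lower in KO with either treatment, by -0.88 and -2.76. With treatment as a block, limma and voom called 0 members and 0 genes (0.0% in either direction), with an adjusted p of 1.00 for each member. At an unadjusted p under 0.05 the 1 member was Olfr1511, lower, against 0.966% of all genes lower and 1.27% higher and 63 of the 590 receptors in either direction.

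In Het epithelium, set against the same WT libraries, all 5 members were lower on average over the treatments. The fitted log2 difference was -0.74 ± 0.17 for Olfr1507, -0.56 ± 0.24 for Olfr1508, -1.61 ± 0.47 for Olfr1509, -0.58 ± 0.73 for Olfr1510 and -2.27 ± 0.59 for Olfr1511. The family was lower as a whole, 514 of 590 receptors with a median of -0.90, and the members' median was -0.74. Limma and voom called 0 members and 0 genes (0.0% in either direction), with adjusted p from 0.706 to 0.849 for the members by limma. With water alone, which leaves out the Het odor library with its low Omp, Olfr1507 differed by -0.85 and Olfr1508 by -0.86, against -0.63 and -0.25 with odor alone. Mature neuron RNA was low in Het water as well. Omp was 1582 there against 5962 in WT water, and the summed mature markers were 11764 against 25898. Olfr1510 turned direction between treatments, with 0.43 with odor and -1.59 with water. At an unadjusted p under 0.05, 3 of the 5 members were lower (Olfr1507, Olfr1509 and Olfr1511), against 3.99% of all genes lower and 2.71% higher and 126 of the 590 receptors in either direction. Of the 12 mature neuron markers 11 were lower in Het, with a median log2 of -1.10, and their part in these differences was not tested. Which animals stand behind a library is not labelled, and the p-values of the odor and genotype comparisons therefore cover only the spread of these 6 libraries, which is the difference in odor effect between genotypes. Empirical Bayes draws each gene's spread toward that of genes of similar level, so a p-value does not rest on that gene's values alone.

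In sorted neurons no member was 2-fold apart between genotypes. The log2 difference between KO and WT was -0.29 for Olfr1507, 0.03 for Olfr1508, 0.35 for Olfr1509, -0.34 for Olfr1510, -0.21 for Olfr1511 and -0.75 for Olfr1512. The receptor median was -0.36, so Olfr1507, Olfr1510 and Olfr1511 lay close to it and Olfr1509 above 79.0% of receptors. Of all genes 17.5% were at least 2-fold higher and 2.84% at least 2-fold lower in KO, and the 2 library kits differ between these groups. Between Het and WT, with the same WT value, the differences were -0.13, 0.31, 0.45, 0.18, -0.02 and 0.08 from Olfr1507 to Olfr1512, against a receptor median of 0.02. There 6.89% of genes were at least 2-fold higher and 2.5% at least 2-fold lower. These are single pooled values, with no test.

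**Figure D5:**
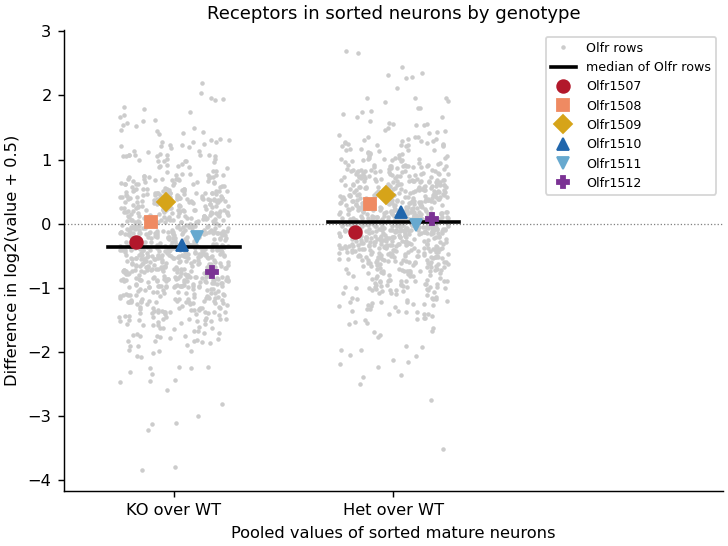
Difference in log2(value + 0.5) of each receptor (grey points, spread sideways at random) between KO and WT and between Het and WT sorted neurons, with the median of all 830 Olfr rows as a black bar and the MOR28 cluster receptors as coloured symbols. All 6 lie within 1 log2 unit of 0, from -0.75 for Olfr1512 to 0.45 for Olfr1509, and both comparisons use the same WT value.

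Over the 6 MOE libraries the profile of Olfr1507 was most like those of Olfr389 (Pearson r = 0.974), Olfr948 (r = 0.973) and Olfr1426 (r = 0.957) among receptors outside the cluster. The correlations are of log2(value + 0.5) among genes with a mean value of 5 or more. Among other genes they were highest for Pdss2, an enzyme of coenzyme Q synthesis (r = 0.993), Als2cr4 (r = 0.986) and Phf10, a chromatin remodelling subunit (r = 0.984). An r of 0.9 was reached by 19 of 565 receptors outside the cluster and by 142 of 12952 genes that are not receptors. Within the cluster r with Olfr1507 was 0.944 for Olfr1508 and 0.931 for Olfr1509, against 0.275 for Olfr1510 and 0.528 for Olfr1511. The 6 points share genotype, treatment and the content of mature neurons, and the low reads of the last 3 genes limit their r. Nearest to Olfr1508 were Olfr346, Olfr307 and Olfr876 (r from 0.955 to 0.961) and, outside the family, Ncapg2, a condensin subunit (r = 0.990).

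Genes that flank the cluster and are not receptors had their highest values in other libraries than Olfr1507, which was highest in KO water. On the Olfr1512 side Sall2, a zinc finger factor, had 3.84 and 7.14 in KO odor and KO water, 22.5 and 11.5 in Het odor and Het water, and 11.1 and 8.27 in WT odor and WT water, highest in Het odor, where Olfr1507 was lowest. Mettl3 had 12.5 in KO odor, 14.9 in Het odor and 15.0 in WT odor. With water it had 17.9 in KO, 18.4 in Het and 15.8 in WT. Mettl3 was thus lower with odor in each genotype, as was Olfr1507, and highest in Het water. Tox4, a chromatin protein, had 133 to 172 in KO and Het libraries and 108 to 170 in WT libraries. On the Olfr1507 side Dad1, a subunit of the oligosaccharyl transferase, was also highest in Het odor, at 241 against 130 to 175 in the other 5. Rps19-ps1 and Rps19-ps2, ribosomal protein pseudogenes, had nearly identical values and cannot be told apart by these reads.

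Of 20 regulators of receptor expression and transport, 0 passed in any MOE comparison by limma, with 5 at an unadjusted p under 0.05 between Het and WT and 1 between odor and water. Between Het and WT 13 of them were lower, with a median of -0.19. The 5 were all lower: Adcy3, the cyclase of odor transduction (-1.03 ± 0.23), Ebf4 (-0.999 ± 0.274), and the receptor transport genes Reep1 (-0.81 ± 0.20), Rtp1 (-0.73 ± 0.22) and Rtp2 (-0.52 ± 0.20), against 3.99% of all genes lower. Adcy3 and Rtp1 are also among the mature neuron markers. Lhx2 was at -0.21 ± 0.24, Ldb1 at -0.11 ± 0.24 and Ebf1 at -0.37 ± 0.17. Between KO and WT 8 were lower, with a median of 0.03, and with odor 9 were lower than with water, with a median of 0.03. Lhx2 had 277 and 354 in KO odor and KO water, 311 and 245 in Het odor and Het water, and 282 and 364 in WT odor and WT water, and the 3 genotypes overlapped. In mOSN its pooled value was 588 in KO, 725 in Het and 657 in WT.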

How the data were processed

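RNA was measured in sorted mOSN and in whole MOE. Both deposited tables hold RPKM values of the authors, one table per tissue, and the formula is not given in the sources used here. STAR 2.3.0, Bowtie2 2.1, featureCounts, DESeq and Picard 1.64 and the builds NCBIM37 and mm9 are named, with no role or order, per the submitters' processing notes. Of 14751 mOSN rows 7 hold no values and were left out. Neither table holds a value of 0.

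In MOE all 14613 genes (100%) could be written as whole reads times a library factor within a relative tolerance of 1e-05, exact up to a divisor shared by a gene's 6 counts. Gene lengths were implied from the values and reads, scaled to RefSeq's span of 957 bases for Olfr1511. The lengths implied for Olfr1509 and Olfr1510 (1010 and 1039 bases) equal their RefSeq spans. Those of Olfr1507 and Olfr1508 were 1605 and 1865 bases, shorter than their RefSeq spans of 5761 and 4741 bases. Receptors of one family are similar in sequence, and how reads shared between them were counted is not stated, so single values are uncertain.

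Genes at 0.5 or more in at least 2 libraries were kept and fitted as log2(value + 0.5) with limma 3.58.1 in R 4.3.3 (empirical Bayes with a mean-variance trend, adjusted p threshold 0.05), with 2 residual degrees of freedom for the odor and genotype comparisons. The code was tested on simulated data. Fold changes on this scale understate those of low genes. The mOSN columns are the authors' pooled values without a test. Named genes are all members, the 3 receptors and 3 other genes with the most similar profile for each member, the 3 nearest other genes on each side, the receptors next in rank, a list of 20 receptor regulators, Dnmt3a, Fos and Egr1, of which a selection is printed. Members and lists were chosen with earlier results of these data known. Alternatives were the pseudocount, the filter, the scaling, the block, leaving out libraries and ranking by reads or over the 515 receptors in both tables. Voom, a minimum of 100 reads and leaving out the third genotype were added after seeing the data. The 21 samples of other assays were not analysed here.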

Additional observations from a re-analysis of the deposited data

How the results depend on the processing

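No member passed in any of 128 tests of member fold changes under the alternatives (smallest adjusted p 0.408 by limma or voom). Changing the filter, dropping the block or, in the genotype comparisons, leaving out the third genotype cannot change a member's fitted fold change. Of 148 alternative values of the member fold changes, which include these fixed ones, 143 kept their direction. The others were Olfr1510 with odor against water when 1 genotype was left out (-1.32 without KO to 0.24 without WT), Olfr1510 in KO against WT with 1 treatment alone (0.65 with odor, -2.46 with water), Olfr1508 in KO against WT (0.44 with odor, -0.25 with water), Olfr1510 in Het against WT (0.43 with odor, -1.59 with water), and Olfr1507 for the KO odor effect with voom (0.0029). The cause was not tested. Odor against water called 2 genes in the reported fit, 1 with median-ratio scaling, 1 without the genotype block, 0 to 4 when 1 genotype's pair of libraries was left out (0 without KO, 0 without Het, 4 without WT), 4 with a minimum of 100 reads and 6 with voom. The other 3 comparisons called 0 under each alternative. Of 75 alternative ranks 15 left the binomial interval of the reported rank, none of them for Olfr1507, and the 12 mOSN differences kept their direction with a pseudocount of 1. That interval treats a fixed list of receptors as random draws, so it does not measure the error of a rank. By reads Olfr1507 still moved from place 1 to place 2 in the Het and WT libraries. The genotype block pairs odor and water libraries by genotype, and its removal is given above. By replicate number, no paired analysis was possible because the mOSN columns are pooled and MOE has 1 library per group. Reads of 3 to 54 limit Olfr1509, Olfr1510 and Olfr1511, and the unknown depth limits the mOSN values.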
